A study of Homo sapiens with 18 samples.

Results

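The comparison described here is the step from Day 5 to Day 12 in cerebral organoids made from a LIS1+/- human embryonic stem cell line. Its members were taken from the sample titles: the 3 libraries titled Day 12 with the genotype LIS1+/- were set against the 3 titled Day 5 with the same genotype, which makes 6 of the 18 libraries of the series. The series holds 2 genotypes, LIS1+/+ and LIS1+/-, at 3 stages (undifferentiated stem cells, organoids at Day 5 and organoids at Day 12) with 3 repeats each. All groups were grown from WIBR3, an established human embryonic stem cell line, so the control organoids share that background. The labels give no other agent or allele, no number of clones for the LIS1+/- line, and do not say whether the repeats were separate cultures. P-values below therefore measure the spread between these libraries, which may be technical. The count files of the Day 5 and Day 12 libraries carry different pool numbers in their names, in both genotypes, so stage and pool cannot be told apart within a genotype.

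LIS1 is the product of PAFAH1B1. It regulates the microtubule motor dynein, which moves nuclei and centrosomes, and loss of 1 copy causes lissencephaly, a human brain malformation with a smooth cortex. In organoid cultures, stem cells leave the pluripotent state, form a neuroepithelium of dividing progenitors, and are patterned along the axes of the neural tube before the first neurons are born. Secreted WNT and BMP ligands from the dorsal midline, FGF signals and Notch signalling between neighbouring cells are known regulators of these steps. In cultured tissue oxygen can become limiting, and cells that sense this switch on targets of hypoxia-inducible factors.

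The libraries were made by bulk MARS-seq, which counts the 3′ ends of polyadenylated transcripts. Gene counts summed to between 2586073 and 3365342 in the Day 5 LIS1+/- libraries and to between 1513390 and 3237210 in the Day 12 LIS1+/- libraries. The LIS1+/+ libraries, used only where the steps of both genotypes are compared, held 4216835 to 4501489 counts at Day 5 and 1425098 to 1962218 at Day 12. Day 5 LIS1+/- replicate 2 stood apart from its repeats in base composition: the slope of its log2 level on the GC content of the transcript end was -0.0284 per percentage point, against 0.0196 and 0.00881 in replicates 1 and 3. Reads with no unique alignment made up 31.7% to 33.7% of all reads at Day 5 and 26.5% to 28.2% at Day 12. In bulk RNA, fewer cells of a type and less RNA per cell cannot be told apart. Levels are CPM, counts scaled to a common library size, and differences are log2 fold changes of Day 12 over Day 5 ± standard error (SE) from edgeR's quasi-likelihood test, with p-values adjusted by the Benjamini-Hochberg method over 12215 genes and called under 0.05.

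PAFAH1B1 itself (chr17:2593210-2685615 in GRCh38, plus strand, protein coding) was measured at 89, 105 and 84.3 CPM at Day 5 and 104, 114 and 76.1 CPM at Day 12 in the LIS1+/- organoids. The libraries of both days overlapped, and its change was not called (log2 fold change 0.08 ± 0.19, adjusted p = 0.831). Its level in the LIS1+/- stem cells was 56.2 ± 4.93 CPM (SD, n = 3). In LIS1+/+ organoids the gene stood higher, at 129.8, 134 and 152 CPM at Day 5 and 147, 218 and 139.7 CPM at Day 12, and each LIS1+/+ library lay above each LIS1+/- library of the same day. The targeted gene thus followed the genotype labels. The sign of its small change turned without Day 12 replicate 2 (log2 fold change -0.05).

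Between Day 5 and Day 12, 2020 of the 12215 genes tested were called in the LIS1+/- organoids, which is 16.5%. Of these, 1087 (8.90%) were higher at Day 12 and 933 (7.64%) were lower. At least a 2-fold change was seen in 742 of the higher genes and in 404 of the lower genes, and the median log2 fold change over all tested genes was -0.008. The libraries of both days did not overlap in 1948 of the 2020 called genes, so a lack of overlap adds little to a call. The largest rises and falls were also chosen to have no overlap. Without Day 12 replicate 2 the number of called genes was 1325, of which 564 were lower, and without Day 12 replicate 1 the number called lower was 621, with 1435 called in all. The largest rises included genes of the midbrain-hindbrain boundary (EN2), dorsal midline (ZIC1, ZIC4), motile cilium (DRC1), lactate export (SLC16A3) and young neurons (STMN2). The hormone precursor gene TRH was also among them. The largest falls included an eye field group (RAX, SIX6, MAB21L2, ALDH1A3), the secreted protein genes PAMR1 and SPP1, and VRTN and FST. Others among the largest changes were FAM132B, GDF5 and CHRNA4 among the rises and CCK, CYP1A1, SHISA2, FAM69C and EDN1 among the falls.

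**Figure D1:**
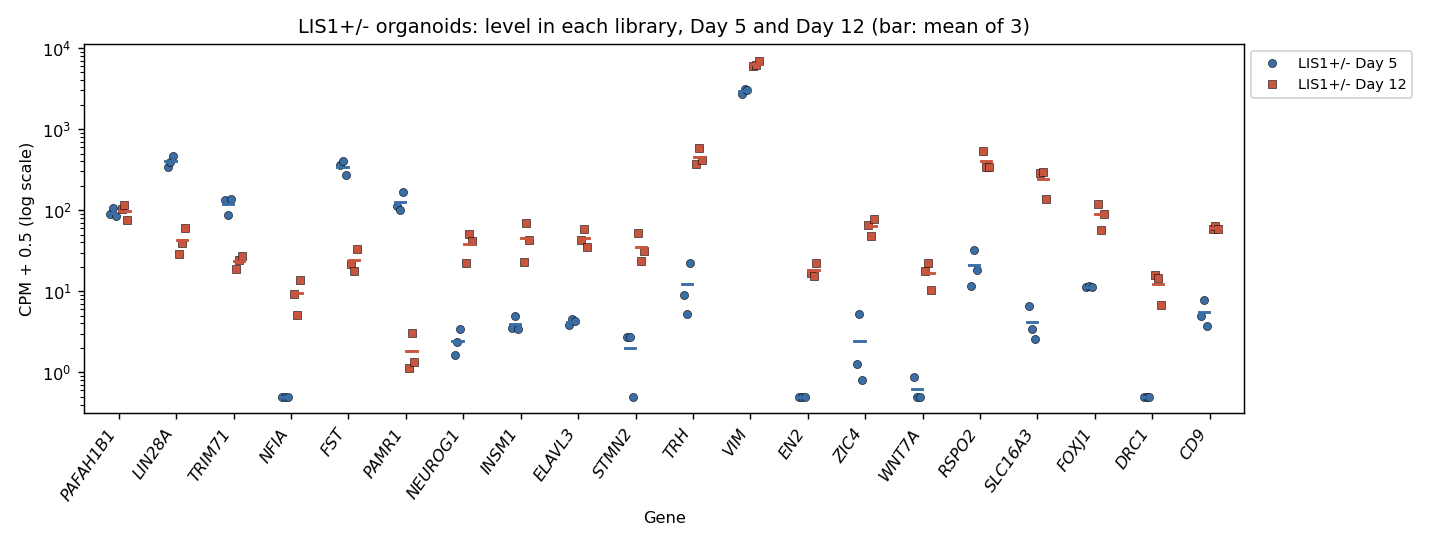
Level of 20 genes in each LIS1+/- organoid library, as CPM + 0.5 on a log axis. Circles are the 3 Day 5 libraries, squares the 3 Day 12 libraries and bars the means. PAFAH1B1 overlaps between the days, whereas LIN28A, TRIM71, FST and PAMR1 sit lower at Day 12 and the genes from NEUROG1 rightward sit higher.

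The shift can be followed gene group by gene group in the plot of list members called. The count of members called in each list is to be read beside the share over all tested genes, 8.90% higher and 7.64% lower. A median log2 fold change is given for some lists. The filter on low counts kept a gene if enough of the 18 libraries held it. A member near 0 at Day 5 could therefore be tested because of its Day 12 level, which can tilt a list's share and median upward.

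**Figure D2:**
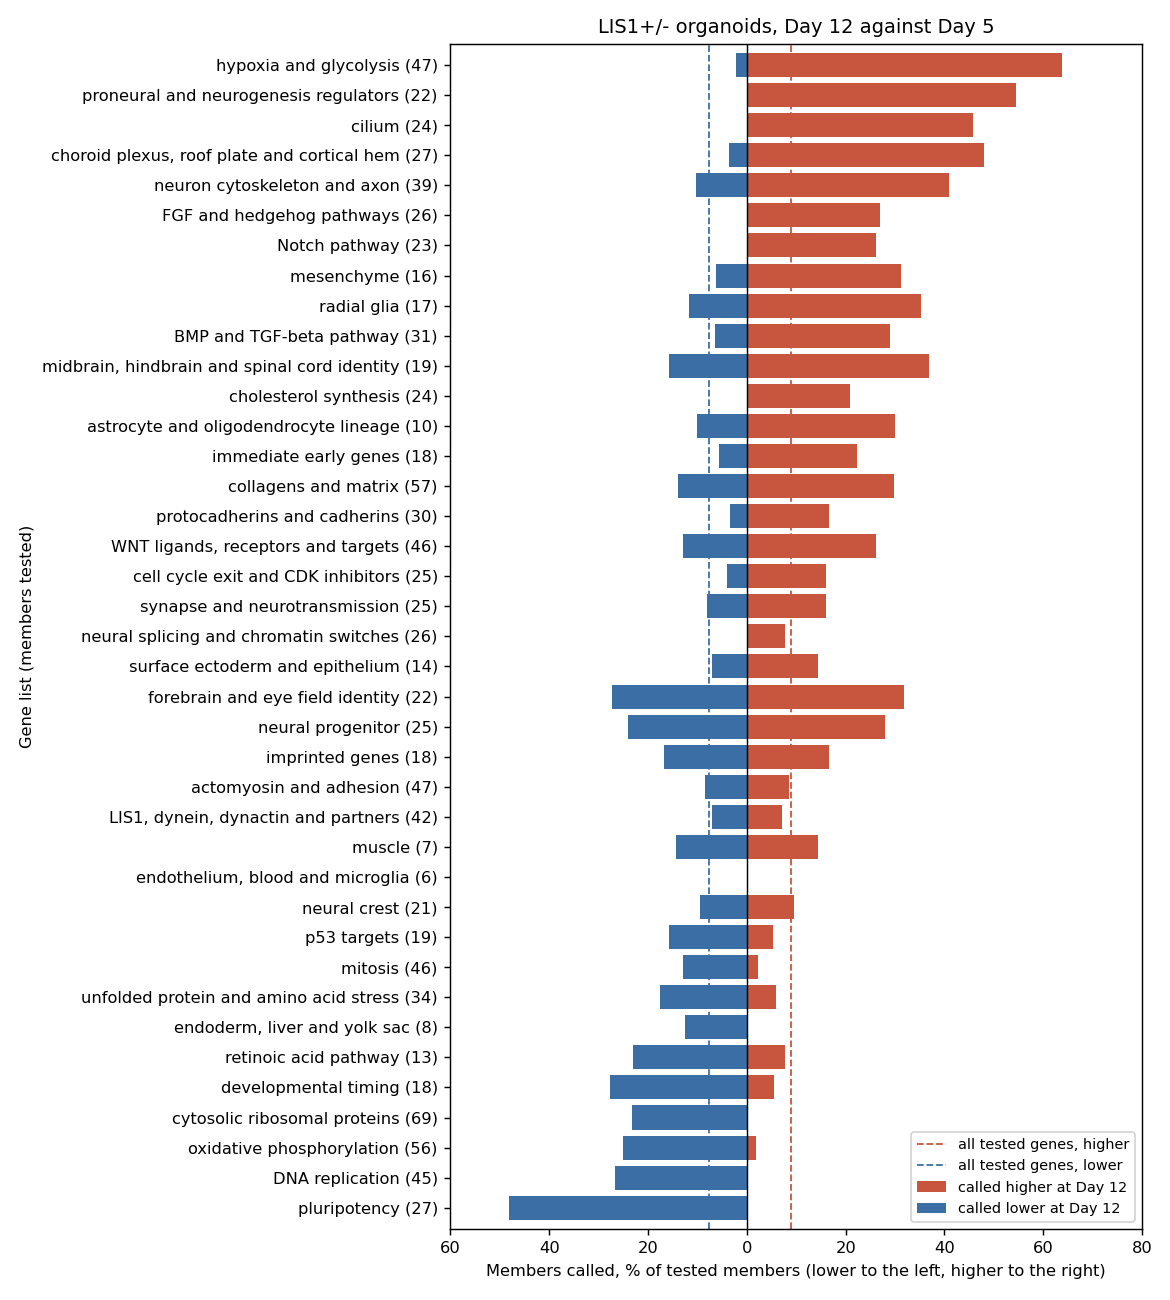
Share of tested members of each of 39 gene lists called higher (to the right) or lower (to the left) at Day 12 in LIS1+/- organoids, in percent, with the number tested in brackets. Dashed lines mark all tested genes, 8.90% higher and 7.64% lower. Hypoxia and glycolysis stands at the top with 63.8% of members higher, and pluripotency at the bottom with 48.1% lower.

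Pluripotency genes went on falling after Day 5. Of 27 tested members, 13 fell and 14 were not called, with a median log2 fold change of -1.62 (-1.55 with members at 0 counts placed at their bound). POU5F1, the OCT4 factor of the pluripotent state, had already dropped from 456 ± 54.3 CPM (SD, n = 3) in the LIS1+/- stem cells, and stood at 8.60, 7.31 and 5.85 CPM at Day 5 and 0.618, 0.569 and 0.570 CPM at Day 12 (log2 fold change -3.53 ± 0.38, adjusted p = 2.13e-07). Its reads may be shared with the near-identical copy POU5F1B. TDGF1, a Nodal co-receptor, gave 19 counts over the Day 5 libraries and 0 over the Day 12 libraries, so its level was at least 6.20-fold lower. VRTN, a gene of the primed pluripotent state, was at 19.4, 27.1 and 16.4 CPM at Day 5 and 0.618, 1.71 and 0 CPM at Day 12 (log2 fold change -4.61 ± 0.47, adjusted p = 1.91e-07), with no overlap between the days. Leaving out Day 12 replicate 2 moved its log2 fold change to -6.41 and leaving out Day 12 replicate 3 moved it to -3.90. NANOG was listed at 0 counts in all 6 libraries. SOX2, which both stem cells and neural progenitors use, was at 577, 808 and 646 CPM at Day 5 and 460.0, 532 and 440.3 CPM at Day 12 (log2 fold change -0.50 ± 0.17, adjusted p = 0.0431). That call was lost without Day 5 replicate 2 or 3 and without any 1 of the Day 12 libraries, with adjusted p-values up to 0.181.

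Of 18 tested members of the developmental timing list, 5 fell, 1 rose and 12 were not called, with a median log2 fold change of -0.33. LIN28A, an RNA-binding protein that blocks maturation of let-7 microRNAs, was measured at 338, 394 and 466 CPM at Day 5 and 28.4, 38.4 and 60.1 CPM at Day 12, a 9.22-fold fall (log2 fold change -3.21 ± 0.24, adjusted p = 9.71e-10). TRIM71, a let-7 target and RNA-binding ubiquitin ligase, was at 132, 85.5 and 138 CPM at Day 5 and 18.5, 23.9 and 26.8 CPM at Day 12 (log2 fold change -2.34 ± 0.33, adjusted p = 3.49e-05). MYCN, a growth-promoting transcription factor of progenitors, was at 306, 403 and 288 CPM at Day 5 and 97.1, 116 and 113 CPM at Day 12 (log2 fold change -1.61 ± 0.16, adjusted p = 9.62e-08). Every Day 12 library lay below every Day 5 library for these 3 genes. SALL4 and the de novo DNA methyltransferase DNMT3B fell as well, with log2 fold changes of -1.57 ± 0.23 and -1.13 ± 0.16. The 1 member that rose was NFIA, a factor of the later gliogenic switch, from 0 counts over the Day 5 libraries to 8.66, 4.55 and 13.4 CPM, at least 26.2-fold higher. LIN28B, the paralog of LIN28A, was not called (19.1, 28.9 and 23.7 CPM at Day 5 and 11.1, 13.7 and 19.4 CPM at Day 12; log2 fold change -0.66 ± 0.30, adjusted p = 0.13).

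Many regulators of neurogenesis rose, but not all. That list held 41 genes, of which 22 were tested. Of the 22 tested members 12 were higher at Day 12 and 10 were not called, with a median log2 fold change of 1.80. NEUROG1, a proneural factor that commits progenitors to a neuronal fate, was at 1.12, 1.83 and 2.93 CPM at Day 5 and 21.6, 50.9 and 41.3 CPM at Day 12 (log2 fold change 4.23 ± 0.48, adjusted p = 9.94e-07). INSM1, a zinc finger factor of newborn neurons and intermediate progenitors, was at 2.99, 4.39 and 2.93 CPM at Day 5 and 22.3, 69.7 and 42.5 CPM at Day 12 (log2 fold change 3.74 ± 0.53, adjusted p = 7.73e-05). The LIS1+/- stem cells held more INSM1 than the Day 12 organoids, 123 ± 16.9 CPM (SD, n = 3). ELAVL3, a neuronal RNA-binding protein, was at 3.36, 4.02 and 3.80 CPM at Day 5 and 42, 58 and 34.2 CPM at Day 12, an 11.9-fold rise (log2 fold change 3.57 ± 0.38, adjusted p = 1.91e-07). The Day 12 values of NEUROG1 and INSM1 spread over a wider range than those of ELAVL3, with replicate 1 lowest for both, but no library of one day reached the range of the other. HES6, which opposes HES1 in differentiating cells, was already abundant, at 219, 284 and 191 CPM at Day 5 and 466, 490.2 and 519.5 CPM at Day 12 (log2 fold change 1.09 ± 0.19, adjusted p = 0.000168). CDKN1C, an inhibitor of the cell cycle expressed as neurons are born, was at 110.3, 84.8 and 123 CPM at Day 5 and 306, 278 and 269 CPM at Day 12 (log2 fold change 1.42 ± 0.20, adjusted p = 9.25e-06). DLL3, a Notch ligand of nascent neurons, had a log2 fold change of 1.78 ± 0.33 (adjusted p = 0.000339). The list members NEUROG3, NEUROD6, ATOH1 and TBR1 were listed at 0 counts in all 6 libraries.

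Genes of the young neuron's cytoskeleton and axon followed, with 16 of 39 tested members higher and 4 lower and a median log2 fold change of 0.55. STMN2, a microtubule-destabilising protein of growing axons, was at 2.24, 2.19 and 0 CPM at Day 5 and 51.3, 23 and 30.8 CPM at Day 12 (log2 fold change 4.58 ± 0.62, adjusted p = 2.22e-05). Its log2 fold change was 3.92 without Day 5 replicate 3, the library with 0 counts. GAP43, a growth cone protein, was at 50.8, 61.4 and 33.6 CPM at Day 5 and 247, 204 and 307 CPM at Day 12 (log2 fold change 2.38 ± 0.20, adjusted p = 2.82e-09). The LIS1+/- stem cells held 157.6 ± 9.38 CPM of GAP43 and 12.5 ± 8.20 CPM of STMN2 (SD, n = 3), both above the Day 5 levels. DCX, the doublecortin gene whose loss causes another form of lissencephaly, was at 17.6, 20.5 and 19.6 CPM at Day 5 and 40.2, 59.8 and 48.2 CPM at Day 12 (log2 fold change 1.37 ± 0.27, adjusted p = 0.000755). All 3 were higher in every Day 12 library than in any Day 5 library. TUBA1A, the main alpha tubulin of postmitotic neurons and the most abundant gene called higher, was at 3519, 6029 and 4510.4 CPM at Day 5 and 8558, 7618 and 8580.3 CPM at Day 12 (log2 fold change 0.82 ± 0.17, adjusted p = 0.00136). It shares much sequence with other alpha tubulin genes, so its reads may be split among them. NRN1, which promotes neurite growth, rose from 2.99, 12.8 and 4.97 to 126, 101 and 76.1 CPM (log2 fold change 3.86 ± 0.40, adjusted p = 5.28e-07), and without Day 5 replicate 2 its log2 fold change was 4.60. The 4 members that fell were UCHL1, NRCAM, SEMA3A and ROBO1. UCHL1, a neuronal ubiquitin hydrolase that the LIS1+/- stem cells also expressed at 2687 ± 364 CPM (SD, n = 3), was at 1708, 2011 and 1390.1 CPM at Day 5 and 778, 913 and 978 CPM at Day 12 (log2 fold change -0.94 ± 0.17, adjusted p = 0.000291). The axon guidance ligand SEMA3A and the adhesion molecule NRCAM had log2 fold changes of -2.20 ± 0.51 and -1.76 ± 0.37.

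Of 25 tested members of the synapse and neurotransmission list 4 rose and 2 fell; the 4 were SYT4, SST, PCSK1N and CALB1, the 2 were SV2A and SCG5, and without Day 12 replicate 1 or 3 the counts were 2 and 1. SYT4, a vesicle protein, was at 4.49, 5.85 and 1.46 CPM at Day 5 and 29.1, 31.9 and 50.4 CPM at Day 12 (log2 fold change 3.28 ± 0.51, adjusted p = 6.15e-05). CALB1, which encodes a calcium-buffering protein, was at 1.50, 0.731 and 0.878 CPM at Day 5 and 24.7, 33.3 and 72.7 CPM at Day 12 (log2 fold change 5.38 ± 0.51, adjusted p = 3.98e-08), and without Day 12 replicate 3, its highest library, the log2 fold change was 4.78. TRH, the precursor of thyrotropin-releasing hormone, which was in no list, was among the largest rises at 8.60, 4.75 and 21.9 CPM at Day 5 and 371, 585 and 415 CPM at Day 12 (log2 fold change 5.23 ± 0.40, adjusted p = 6.55e-08). Without Day 5 replicate 3, the highest of that day, it was 6.09. CALB1 and TRH kept the days apart in every library, which the rule that named them required.

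Radial glia, the stem cells of the developing brain wall, share intermediate filament and Notch pathway genes. Of 17 tested members of their list 6 rose and 2 fell, with a median log2 fold change of 0.53. VIM, the vimentin filament gene, was at 2674, 3087 and 3007 CPM at Day 5 and 6042, 6176 and 6969 CPM at Day 12 (log2 fold change 1.13 ± 0.14, adjusted p = 1.44e-06). Its Day 12 level was near that of the LIS1+/- stem cells, 6584 ± 78.8 CPM (SD, n = 3). TTYH1, a chloride channel of neural progenitors, was at 1409.9, 1185 and 1584 CPM at Day 5 and 2503, 2446 and 2878 CPM at Day 12 (log2 fold change 0.91 ± 0.17, adjusted p = 0.00043). SOX9, a factor of stem cell maintenance and gliogenesis, was at 13.8, 19.4 and 17.8 CPM at Day 5 and 56.3, 60.9 and 47.3 CPM at Day 12 (log2 fold change 1.68 ± 0.27, adjusted p = 7.99e-05). Each Day 12 library was above each Day 5 library for these 3. TNC, a matrix protein of radial glia, and PAX6, a cortical and eye progenitor factor, were the 2 that fell. TNC was at 27.3, 32.5 and 23.7 CPM at Day 5 and 2.47, 7.11 and 15.1 CPM at Day 12 (log2 fold change -1.63 ± 0.36, adjusted p = 0.00244), and -2.37 without Day 12 replicate 3. PAX6 was at 25.8, 23 and 25.7 CPM at Day 5 and 13.6, 16.2 and 10.8 CPM at Day 12 (log2 fold change -0.87 ± 0.30, adjusted p = 0.0422), a call that was lost on leaving out any 1 of the 6 libraries, with adjusted p-values up to 0.174.

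The wider neural progenitor list was divided, with 7 of 25 tested members higher, 6 lower and a median log2 fold change of 0.08. SOX1, an early marker of neuroectoderm, was at 5.23, 11.3 and 18.7 CPM at Day 5 and 37.1, 40.7 and 29.1 CPM at Day 12 (log2 fold change 1.57 ± 0.38, adjusted p = 0.00618). ZIC1, a factor of the dorsal neural tube, was at 0.374, 1.10 and 0.878 CPM at Day 5 and 33.4, 23.9 and 25.6 CPM at Day 12 (log2 fold change 5.03 ± 0.57, adjusted p = 9.17e-07). ZIC2, its paralog, was at 216, 274 and 256 CPM at Day 5 and 651, 570.2 and 567 CPM at Day 12 (log2 fold change 1.26 ± 0.14, adjusted p = 2.25e-07). All 3 were higher in each Day 12 library. NES, the nestin filament gene, was at 1027, 945 and 1400.1 CPM at Day 5 and 716, 825 and 743 CPM at Day 12 (log2 fold change -0.56 ± 0.18, adjusted p = 0.0362), a call lost without Day 5 replicate 3 or any 1 of the Day 12 libraries, with adjusted p-values up to 0.217. DLK1, an imprinted gene for a membrane protein related to Notch ligands, was the most abundant member that fell, at 2211, 3009.8 and 2309.8 CPM at Day 5 and 423, 416 and 363 CPM at Day 12 (log2 fold change -2.65 ± 0.23, adjusted p = 3.98e-08). The count of members lower dropped to 3 without Day 5 replicate 2 or 3 or Day 12 replicate 1 or 2, and to 2 without Day 12 replicate 3.

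Forebrain and eye field identity genes split into a group that rose and a group that fell. Of 22 tested members 7 rose and 6 fell, with a median log2 fold change of 0.26. Among those that fell were RAX, SIX6, LHX2, SIX3 and TCF7L2. RAX, SIX6, LHX2 and SIX3 are factors of the eye field or the neural retina, and TCF7L2 is a WNT effector of the diencephalon. RAX, which specifies the eye field, was at 237, 60.3 and 215 CPM at Day 5 and 12.4, 9.10 and 7.41 CPM at Day 12 (log2 fold change -4.20 ± 0.60, adjusted p = 0.000145). SIX6, a factor of the retina and pituitary (chr14:60508951-60512850, plus strand), was at 115, 73.5 and 113 CPM at Day 5 and 6.80, 10.5 and 2.56 CPM at Day 12 (log2 fold change -3.92 ± 0.61, adjusted p = 0.000257), and -4.60 without Day 12 replicate 2. All 3 Day 12 libraries of RAX and SIX6 were below all 3 Day 5 libraries, although Day 5 replicate 2 held less of both than its repeats. SIX3, an anterior forebrain factor, was at 346, 270.2 and 291 CPM at Day 5 and 192, 203 and 181 CPM at Day 12 (log2 fold change -0.66 ± 0.20, adjusted p = 0.0259). LHX2, which the optic vesicle requires, was at 251, 276 and 212 CPM at Day 5 and 140.4, 141 and 85.5 CPM at Day 12 (log2 fold change -1.01 ± 0.28, adjusted p = 0.0156). Single libraries ended the calls of SIX3, LHX2 and TCF7L2. SIX3 was lost without Day 5 replicate 1 or any Day 12 library (adjusted p up to 0.109), and LHX2 without Day 5 replicate 2 or Day 12 replicate 3 (up to 0.0792). TCF7L2 was lost without Day 5 or Day 12 replicate 3 (up to 0.0630). Without Day 12 replicate 3 the count of members lower was 2.

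Some genes outside that list that act in the eye were among those named. VAX2 and FOXE3 were chosen after their values were seen. MAB21L2, needed for lens and retina formation, was at 33.6, 43.1 and 65.2 CPM at Day 5 and 3.71, 1.14 and 4.27 CPM at Day 12 (log2 fold change -4.00 ± 0.49, adjusted p = 2.6e-06). FOXE3, a lens factor, was at 36.3, 26.7 and 50.6 CPM at Day 5 and 3.09, 3.13 and 3.13 CPM at Day 12 (log2 fold change -3.58 ± 0.44, adjusted p = 1.73e-06). VAX2, which marks the ventral retina, was at 42.6, 23 and 61.2 CPM at Day 5 and 3.71, 8.54 and 9.40 CPM at Day 12 (log2 fold change -2.47 ± 0.44, adjusted p = 0.00034). The days did not overlap for any of the 3, and the lowest Day 5 library was above the highest Day 12 library in each case. ALDH1A3, a retinaldehyde dehydrogenase that makes retinoic acid in the eye, was at 15, 15.7 and 20.5 CPM at Day 5 and 0, 1.42 and 1.99 CPM at Day 12 (log2 fold change -3.63 ± 0.53, adjusted p = 1.77e-05). MEIS2, a homeobox cofactor used in eye and hindbrain, was at 40.0, 35.5 and 39.2 CPM at Day 5 and 6.18, 7.40 and 11.7 CPM at Day 12 (log2 fold change -2.13 ± 0.32, adjusted p = 3.18e-05).

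Among the 7 forebrain and eye field members that rose were EMX2, DMRT3, FEZF2 and NR2F1. EMX2, a cortical area factor, was at 103, 121 and 112 CPM at Day 5 and 479, 435 and 335 CPM at Day 12 (log2 fold change 1.89 ± 0.24, adjusted p = 1.11e-05). DMRT3, a factor of the medial cortical primordium, was at 12.7, 26.3 and 25.5 CPM at Day 5 and 164, 165 and 133 CPM at Day 12 (log2 fold change 2.83 ± 0.29, adjusted p = 1.91e-07). FEZF2, a forebrain and deep-layer neuron factor, was at 154, 181 and 227 CPM at Day 5 and 595, 384 and 490.2 CPM at Day 12 (log2 fold change 1.38 ± 0.25, adjusted p = 0.000589). EMX2, DMRT3 and FEZF2 each kept the days apart in every library. NR2F1, an abundant regulator of cortical patterning, was at 709, 672 and 795 CPM at Day 5 and 966, 1246 and 1130.5 CPM at Day 12 (log2 fold change 0.62 ± 0.17, adjusted p = 0.0114), a call lost without Day 12 replicate 2 (adjusted p = 0.0707). OTX2, a factor of forebrain and midbrain, was not called (286, 386 and 296 CPM at Day 5 and 297, 291 and 237 CPM at Day 12; log2 fold change -0.23 ± 0.18, adjusted p = 0.421).

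Of 19 tested midbrain, hindbrain and spinal cord genes, from a list of 30, 7 rose and 3 fell, with a median log2 fold change of 1.07. EN2 (chr7:155458129-155464831, plus strand), which marks the boundary of midbrain and hindbrain, went from 0 counts over the Day 5 libraries to 16.1, 14.8 and 21.9 CPM at Day 12, at least 52.8-fold higher. EN1, its paralog, was at 0, 3.66 and 0.585 CPM at Day 5 and 24.1, 10.5 and 32.5 CPM at Day 12 (log2 fold change 3.97 ± 0.74, adjusted p = 0.000716), and without Day 5 replicate 2 its log2 fold change was 5.91. PAX2, which acts in the same boundary and in the optic stalk, moved the other way, at 39.2, 35.1 and 28.4 CPM at Day 5 and 6.80, 1.99 and 11.1 CPM at Day 12 (log2 fold change -2.36 ± 0.46, adjusted p = 0.000989; -3.16 without Day 12 replicate 3). The other 2 members that fell were the homeobox cofactors MEIS1 and MEIS2. HOXA2, HOXB1, HOXB3, HOXA4 and HOXC4, factors of the hindbrain and spinal cord, were listed at 0 counts in all 6 libraries.

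Genes of the roof plate, cortical hem and choroid plexus, which together form the dorsal midline and its secretory derivative, rose, with 13 of 27 tested members higher, 1 lower and a median log2 fold change of 1.40. RSPO2, a secreted amplifier of WNT signalling, was at 11.2, 31.8 and 17.8 CPM at Day 5 and 529.9, 343 and 336 CPM at Day 12 (log2 fold change 4.31 ± 0.41, adjusted p = 9.4e-07). RSPO1, its relative, was at 71.8, 76.8 and 40.1 CPM at Day 5 and 357, 369 and 365 CPM at Day 12 (log2 fold change 2.54 ± 0.25, adjusted p = 9.23e-08). LMX1A, the roof plate selector factor, was at 9.72, 19.7 and 8.49 CPM at Day 5 and 85.3, 54.6 and 62.4 CPM at Day 12 (log2 fold change 2.41 ± 0.36, adjusted p = 4.37e-05). For all 3 the lowest Day 12 library was above the highest Day 5 library. The next members were close to 0 at Day 5 or rose from a moderate level. ZIC4, a dorsal midline factor, was at 0.748, 4.75 and 0.293 CPM at Day 5 and 64.3, 47.5 and 77.5 CPM at Day 12 (log2 fold change 5.06 ± 0.60, adjusted p = 8.95e-06), and 6.86 without Day 5 replicate 2. CLIC6, a chloride channel protein of the choroid plexus, was at 0.374, 0.731 and 0.293 CPM at Day 5 and 14.2, 12 and 22.2 CPM at Day 12 (log2 fold change 5.02 ± 0.65, adjusted p = 3.74e-06). BMP7, a dorsal midline ligand, was at 38.1, 56.3 and 25.2 CPM at Day 5 and 134, 129.5 and 101 CPM at Day 12 (log2 fold change 1.61 ± 0.25, adjusted p = 3.53e-05). TTR, the transthyretin gene that defines mature choroid plexus, gave 0 counts at Day 5 and 13, 1.99 and 1.14 CPM at Day 12, and was not called (adjusted p = 0.315). It was called with no filter on low counts (1.23e-07), in a fit of only the libraries compared (0.0154) and with the replicate block (0.00498). The member that fell was SFRP2, a secreted WNT antagonist and the most abundant of the list, so the summed level of the list went from 6171 to 6696 CPM at Day 5 to 3708 to 3877 CPM at Day 12 although most called members rose. Without Day 5 replicate 1 or Day 12 replicate 3, 2 members were lower.

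Secreted signals changed on both sides of the WNT pathway. Of 46 tested WNT members 12 rose and 6 fell, with a median log2 fold change of 0.17. Among ligands, WNT7A gave 1 count over the Day 5 libraries and 139 over the Day 12 libraries (0.374, 0 and 0 CPM at Day 5 and 17.3, 21.6 and 9.97 CPM at Day 12), a ratio of levels of 142 (95% interval 25.1 to 5649), counting error only. Day 5 replicate 1 held that count. Among antagonists, SFRP2 was at 5010.5, 5004 and 5738 CPM at Day 5 and 1473, 1703 and 1685 CPM at Day 12 (log2 fold change -1.70 ± 0.17, adjusted p = 9.23e-08). SFRP1 was at 302, 389 and 359 CPM at Day 5 and 150.2, 171 and 126 CPM at Day 12 (log2 fold change -1.23 ± 0.17, adjusted p = 1.24e-05). DKK1, which blocks the LRP co-receptors, was at 65.8, 62.5 and 41.3 CPM at Day 5 and 9.89, 7.11 and 7.12 CPM at Day 12 (log2 fold change -2.84 ± 0.33, adjusted p = 8.05e-07). The 3 antagonists named were lower in each Day 12 library than in each Day 5 library. Among receptors, FZD8, a forebrain frizzled, was at 38.5, 30.7 and 33.4 CPM at Day 5 and 15.5, 15.9 and 8.55 CPM at Day 12 (log2 fold change -1.38 ± 0.25, adjusted p = 0.000248).

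In the BMP and TGF-beta list 9 of 31 tested members rose and 2 fell, with a median log2 fold change of 0.25. The 2 were FST and TGFB1, and 1 was called without Day 5 replicate 1 or 3 or Day 12 replicate 2 or 3. FST, which encodes follistatin, a binding protein that traps activins and BMPs, was at 356, 402 and 268 CPM at Day 5 and 21, 17.4 and 32.8 CPM at Day 12, a 14.2-fold fall (log2 fold change -3.83 ± 0.24, adjusted p = 4.51e-11). INHBB, an activin subunit, gave 2 counts over the Day 5 libraries and 40 over the Day 12 libraries, a ratio of levels of 20.4 (95% interval 5.30 to 174). ID4, a BMP-responsive inhibitor of differentiation, was at 12.7, 14.3 and 10.5 CPM at Day 5 and 60.0, 57.2 and 44.7 CPM at Day 12 (log2 fold change 2.11 ± 0.29, adjusted p = 8.95e-06). FST, a ligand trap, and TGFB1, a ligand, thus fell while INHBB and ID4 rose, and 20 of the 31 members were not called. Signalling through the pathway was not tested.

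Notch pathway genes rose in 6 of 23 tested members (NOTCH1, HES1, HES6, DLL3, MFNG and DNER) and 17 were not called, with a median log2 fold change of 0.38. HES1, the main Notch effector of progenitors, was at 239.6, 201 and 252 CPM at Day 5 and 448, 452 and 393 CPM at Day 12 (log2 fold change 0.90 ± 0.16, adjusted p = 0.000285). NOTCH1, the receptor, was at 87.1, 65.4 and 109 CPM at Day 5 and 143, 164 and 155 CPM at Day 12 (log2 fold change 0.82 ± 0.18, adjusted p = 0.00172). DNER, a neuronal membrane protein related to Notch ligands, was at 2.62, 13.5 and 5.85 CPM at Day 5 and 63.7, 68.6 and 45.9 CPM at Day 12 (log2 fold change 3.01 ± 0.37, adjusted p = 1.59e-06), and 3.75 without Day 5 replicate 2. Receptor and effector together rose by less than 2-fold, and DNER by 8.07-fold.

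In the FGF and hedgehog list 7 of 26 tested members rose and 19 were not called, with 4 of 26 rising without Day 5 replicate 3. Without Day 5 replicate 2, 2 members fell, and 1 fell without Day 12 replicate 1. SPRY1, a feedback inhibitor that FGF signalling induces, was at 25.8, 74.9 and 29.6 CPM at Day 5 and 184, 169.9 and 203 CPM at Day 12 (log2 fold change 2.10 ± 0.32, adjusted p = 0.00012; 2.74 without Day 5 replicate 2). DUSP6, a phosphatase of the same feedback loop, was at 65, 132 and 48.9 CPM at Day 5 and 239, 204 and 215 CPM at Day 12 (log2 fold change 1.42 ± 0.25, adjusted p = 0.000297). Day 5 replicate 2 held the most of both among the Day 5 libraries, and still less than any Day 12 library.

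The neural crest list, with 21 tested members, had 2 higher and 2 lower, close to the share over all genes, and a median log2 fold change of -0.62. TFAP2B, a crest and surface ectoderm factor, gave 1 count at Day 5 and 37 at Day 12 (0, 0.366 and 0 CPM at Day 5 and 4.33, 4.27 and 4.27 CPM at Day 12), a ratio of levels of 37.8 (95% interval 6.38 to 1533). PRRX1, a mesenchyme factor, gave 0 counts at Day 5 and 12 at Day 12, at least 4.09-fold higher. FOXD3, a factor of early crest and stem cells, went from 35 counts at Day 5 to 0 at Day 12, at least 11.4-fold lower. These 3 calls rested on few counts. TFAP2B was lost without Day 5 replicate 1 or 3 (adjusted p up to 0.0755), PRRX1 without any Day 5 library or Day 12 replicate 1 or 2 (up to 0.116), and FOXD3 without Day 5 replicate 1 or 2 or any Day 12 library (up to 0.111). TFAP2B was also not called by DESeq2 (adjusted p = 0.124), and FOXD3 not with the GC trend removed (0.0659). PRRX1 was not called in a fit of only the libraries compared (0.0660) or with the replicate block (0.0819). PMEL, a pigment cell structural protein, was at 364, 244 and 475 CPM at Day 5 and 58.1, 49.8 and 47.6 CPM at Day 12 (log2 fold change -2.81 ± 0.24, adjusted p = 1.65e-08). SOX10, the defining factor of migrating crest, was at 5.98, 0.731 and 1.76 CPM at Day 5 and 1.85, 0.569 and 1.42 CPM at Day 12 and was not called. The summed level of the crest list was 474 to 648 CPM at Day 5 and 193 to 208 CPM at Day 12. Most of that fall was the fall of PMEL, so the sum does not describe the list as a group.

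Of 16 tested mesenchyme genes 5 rose (COL1A1, COL1A2, PDGFRB, MEOX1 and PRRX1) and 1 fell (SFRP1), while the summed level of the list was 562 to 686 CPM at Day 5 and 421 to 439.6 CPM at Day 12. SFRP1 alone was at 302, 389 and 359 CPM at Day 5 and 150, 171 and 126 CPM at Day 12. Its fall was about the size of the fall in the sum, which therefore does not describe the list as a group. COL1A2, a fibrillar collagen chain, was at 14.6, 20.1 and 17.8 CPM at Day 5 and 92.1, 68.3 and 72.7 CPM at Day 12 (log2 fold change 2.13 ± 0.38, adjusted p = 0.000769). COL1A1 was at 5.98, 1.83 and 4.68 CPM at Day 5 and 14.8, 14.2 and 15.1 CPM at Day 12 (log2 fold change 1.80 ± 0.44, adjusted p = 0.00634). Both collagens were higher in the LIS1+/- stem cells than at Day 12. COL1A2 stood there at 321 ± 48.2 CPM and COL1A1 at 100.1 ± 18.5 CPM (SD, n = 3). Without Day 5 replicate 2 or 3 or Day 12 replicate 1 or 2 the number that rose was 3. Among 57 tested collagen and matrix genes 17 rose and 8 fell. SPARC, a collagen-binding matricellular protein, was at 45.2, 40.2 and 32.2 CPM at Day 5 and 228, 164 and 211 CPM at Day 12 (log2 fold change 2.36 ± 0.21, adjusted p = 1.02e-08). LAMB1, a basement membrane laminin chain, was at 97.2, 97.2 and 80.2 CPM at Day 5 and 16.7, 9.39 and 11.1 CPM at Day 12 (log2 fold change -2.94 ± 0.30, adjusted p = 2.13e-07). Its partner NID1 was at 63.2, 66.5 and 67.6 CPM at Day 5 and 26, 28.2 and 21.4 CPM at Day 12 (log2 fold change -1.39 ± 0.21, adjusted p = 4.14e-05). COL1A1, COL1A2 and SPARC were higher, and LAMB1 and NID1 lower, in every Day 12 library than in any Day 5 library.

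The endothelium, blood and microglia list had 6 tested members, all of them not called by edgeR, with 2 at an unadjusted p under 0.05. DESeq2 called 1 lower, as did edgeR with no filter, with the replicate block, without the 3 libraries that stood apart in base composition and with the GC trend removed. The endothelial marker PECAM1 was at 0 counts in all 6 libraries. The summed level of that list was 22.5 to 34.4 CPM at Day 5 and 18.5 to 22.2 CPM at Day 12. In the endoderm list 1 of 8 tested members was called (FOXA3, lower), SOX17 and FOXA2 were at 0 in all 6 libraries, and the summed level was 13.8 to 18.1 CPM at Day 5 and 17.4 to 29.1 CPM at Day 12. The number higher was 2 with no filter, in a fit of only the libraries compared and with the replicate block, and 1 with DESeq2. In the surface ectoderm list 2 of 14 tested members rose (TFAP2C and CLDN3), 1 fell (GATA3), and KRT5 and KRT14 were at 0. The GATA3 call was lost without Day 5 replicate 3 or any Day 12 library, and 1 member rose without Day 12 replicate 1. The astrocyte and oligodendrocyte lineage had 3 of 10 tested members higher. CSPG4, the NG2 proteoglycan of oligodendrocyte precursors and pericytes, was at 0, 0.366 and 0 CPM at Day 5 and 3.71, 5.12 and 3.13 CPM at Day 12. OLIG1, an oligodendrocyte lineage factor, was at 0, 0.366 and 1.17 CPM at Day 5 and 11.1, 6.26 and 5.41 CPM at Day 12. NTRK2, the BDNF receptor, was at 0, 0.731 and 0.878 CPM at Day 5 and 4.95, 4.27 and 3.70 CPM at Day 12. These 3 stayed under 12 CPM in each library, and NTRK2 was not called without Day 5 replicate 1 (adjusted p = 0.0682). BCAN was the 1 member lower, a call lost on leaving out Day 5 replicate 3 or any Day 12 library. The part of any of these cell types in the results above was not tested.

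Part of the replication machinery fell. In the DNA replication list 12 of 45 tested members were lower and 33 were not called, with a median log2 fold change of -0.43. MCM5, a subunit of the replicative helicase, was at 561, 453 and 573 CPM at Day 5 and 160.1, 298 and 231 CPM at Day 12 (log2 fold change -1.19 ± 0.18, adjusted p = 2.1e-05). Of 46 tested mitosis genes 6 fell and 1 rose (KIF2C), and the median was -0.12. Without Day 12 replicate 2 or 3 the number that fell was 3. The KIF2C call was lost without Day 5 replicate 1 or Day 12 replicate 1 or 3. ASPM, a spindle pole protein whose loss causes microcephaly, was at 24.3, 27.4 and 10.5 CPM at Day 5 and 9.27, 5.12 and 6.27 CPM at Day 12 (log2 fold change -1.63 ± 0.41, adjusted p = 0.00674), a call lost without Day 12 replicate 2 (adjusted p = 0.0522). MYBL2, a transcription factor of cycling cells, was at 194, 164 and 148 CPM at Day 5 and 77.3, 88.5 and 123 CPM at Day 12 (log2 fold change -0.80 ± 0.19, adjusted p = 0.004). MKI67, the proliferation marker, was at 57.2, 49.4 and 67.3 CPM at Day 5 and 76.1, 80.8 and 90.1 CPM at Day 12 and was not called (log2 fold change 0.51 ± 0.22, adjusted p = 0.121), its fitted value being higher at Day 12.

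The list with the largest share of called members was hypoxia and glycolysis, in which 30 of 47 tested members rose, 1 fell and 16 were not called, with a median log2 fold change of 1.16. Hypoxia-inducible factors bind short core motifs, ACGTG among them, near many of these genes. They raise glucose uptake, glycolysis, lactate export and collagen hydroxylation when oxygen is low. The sequences below are the 250 bases before the start of 4 genes that rose and of EGLN3, the member that fell. They are from RefSeq on GRCh38.p14, written 5′ to 3′ on the gene's strand, with ACGTG or its reverse complement CACGT in capitals. LDHA and P4HA1 were chosen after their values were seen, and the shares of promoters with the motif over the whole list are given below.

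LDHA: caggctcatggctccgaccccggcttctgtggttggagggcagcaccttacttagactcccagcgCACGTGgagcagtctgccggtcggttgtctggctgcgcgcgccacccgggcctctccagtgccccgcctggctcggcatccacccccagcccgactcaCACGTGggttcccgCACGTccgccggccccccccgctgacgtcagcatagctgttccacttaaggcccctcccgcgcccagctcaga
PGK1: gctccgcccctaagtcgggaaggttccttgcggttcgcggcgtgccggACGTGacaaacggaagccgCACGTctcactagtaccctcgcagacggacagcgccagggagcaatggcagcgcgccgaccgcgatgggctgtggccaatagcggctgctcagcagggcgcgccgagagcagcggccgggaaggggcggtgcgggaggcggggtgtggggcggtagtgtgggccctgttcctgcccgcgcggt
BNIP3: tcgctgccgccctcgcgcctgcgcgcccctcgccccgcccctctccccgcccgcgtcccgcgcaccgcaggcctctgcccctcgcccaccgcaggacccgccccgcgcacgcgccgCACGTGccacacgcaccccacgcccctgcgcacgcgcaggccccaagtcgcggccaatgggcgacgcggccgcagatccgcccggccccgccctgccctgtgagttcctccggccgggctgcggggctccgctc
P4HA1: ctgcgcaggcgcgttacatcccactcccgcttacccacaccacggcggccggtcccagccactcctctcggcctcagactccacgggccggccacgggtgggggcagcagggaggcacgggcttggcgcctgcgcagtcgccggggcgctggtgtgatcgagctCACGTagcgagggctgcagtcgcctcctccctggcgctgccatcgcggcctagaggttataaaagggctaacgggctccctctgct
EGLN3: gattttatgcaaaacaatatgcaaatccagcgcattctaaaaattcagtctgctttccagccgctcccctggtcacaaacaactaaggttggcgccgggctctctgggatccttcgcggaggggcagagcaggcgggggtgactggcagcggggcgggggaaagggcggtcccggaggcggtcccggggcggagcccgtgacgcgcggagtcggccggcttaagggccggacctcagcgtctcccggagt

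These lie at chr11:18394313-18394562 (plus strand) for LDHA, the first of 2 starts in the table, chrX:78103998-78104247 (plus strand) for PGK1, chr10:131981924-131982173 (minus strand) for BNIP3, chr10:73096867-73097116 (minus strand) for P4HA1 and chr14:33951075-33951324 (minus strand) for EGLN3. The motif was found at 3 places before LDHA, 2 before PGK1, 1 before BNIP3, 1 before P4HA1 and 0 before EGLN3, counting overlapping matches on both strands (CACGTG) as 1 place. Promoters were found for 43 of the 47 tested members. The motif was in 40.3% of the 77 promoters of those members, 37.3% of the 51 promoters of members that rose, 48.0% of the 25 promoters of members not called, 22.5% of the 13503 promoters of all tested genes, and 18.5% of all 35116 promoters of the same length in the table. Only ACGTG and its reverse complement were searched, so places with other forms of the core were not counted. A match is only a run of letters and was not tested as a binding site.

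LDHA, lactate dehydrogenase A, which carries 3 of these places, was at 58.3, 59.6 and 43 CPM at Day 5 and 263, 200.3 and 146 CPM at Day 12 (log2 fold change 1.92 ± 0.27, adjusted p = 3.79e-05). PGK1, a glycolytic kinase, was at 408, 563 and 374 CPM at Day 5 and 1303, 1246 and 762 CPM at Day 12 (log2 fold change 1.30 ± 0.19, adjusted p = 1.75e-05). In the LIS1+/- stem cells LDHA was above its Day 12 level, at 422 ± 44.4 CPM (SD, n = 3). PGK1 was there at 947.5 ± 109.0 CPM (SD, n = 3), within its Day 12 range. BNIP3, a mitophagy receptor, was at 57.6, 70.2 and 69.6 CPM at Day 5 and 556, 467 and 294 CPM at Day 12, a 6.65-fold rise (log2 fold change 2.73 ± 0.21, adjusted p = 5.17e-10). For all 3 the Day 12 replicates 1 and 2 were above replicate 3, and replicate 3 was above every Day 5 library. P4HA1, a collagen prolyl hydroxylase, was at 5.98, 6.95 and 4.97 CPM at Day 5 and 30.3, 35 and 24.2 CPM at Day 12 (log2 fold change 2.32 ± 0.33, adjusted p = 1.15e-05). EGLN3, an oxygen-sensing prolyl hydroxylase that is itself known as a hypoxia target, was at 3.74, 9.50 and 5.85 CPM at Day 5 and 0.618, 2.28 and 1.71 CPM at Day 12 (log2 fold change -1.88 ± 0.49, adjusted p = 0.00862). The EGLN3 call was lost without Day 5 replicate 2, its highest library (adjusted p = 0.0581).

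Other members act in lactate export, the use of pyruvate, angiogenesis and growth control. SLC16A3, the lactate exporter MCT4 (chr17:82228397-82261129, plus strand), had the largest rise of the list, from 5.98, 2.92 and 2.05 to 288, 292 and 136 CPM, 66.3-fold (log2 fold change 6.05 ± 0.44, adjusted p = 1.58e-08). PDK1, which diverts pyruvate from mitochondria, was at 2.62, 5.12 and 4.10 CPM at Day 5 and 35.2, 32.2 and 22.2 CPM at Day 12 (log2 fold change 2.89 ± 0.38, adjusted p = 3.9e-06). VEGFA, the angiogenic factor, was at 47.5, 32.2 and 30.7 CPM at Day 5 and 92.7, 91 and 62.4 CPM at Day 12 (log2 fold change 1.15 ± 0.21, adjusted p = 0.000377). The LIS1+/- stem cells held a like level of VEGFA, 84.7 ± 3.58 CPM (SD, n = 3). In all 3, replicate 3 was the lowest Day 12 library and was above every Day 5 library. DDIT4, an inhibitor of mTOR signalling, was at 51.6, 38 and 62.6 CPM at Day 5 and 504, 493 and 292 CPM at Day 12 (log2 fold change 3.07 ± 0.21, adjusted p = 1.27e-10). ALDOC, a brain aldolase, was at 12.3, 12.8 and 14.3 CPM at Day 5 and 204, 177 and 102 CPM at Day 12 (log2 fold change 3.59 ± 0.35, adjusted p = 4.94e-07). ENO1, the abundant enolase, was not called (2320.4, 1469 and 1832 CPM at Day 5 and 3038, 2395 and 2559 CPM at Day 12; log2 fold change 0.51 ± 0.21, adjusted p = 0.103), but was without Day 5 replicate 1 (adjusted p = 0.0497). The summed level of the list was 11292 to 14535 CPM at Day 5 and 14778 to 18675 CPM at Day 12, the Day 12 minimum being replicate 3.

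**Figure D3:**
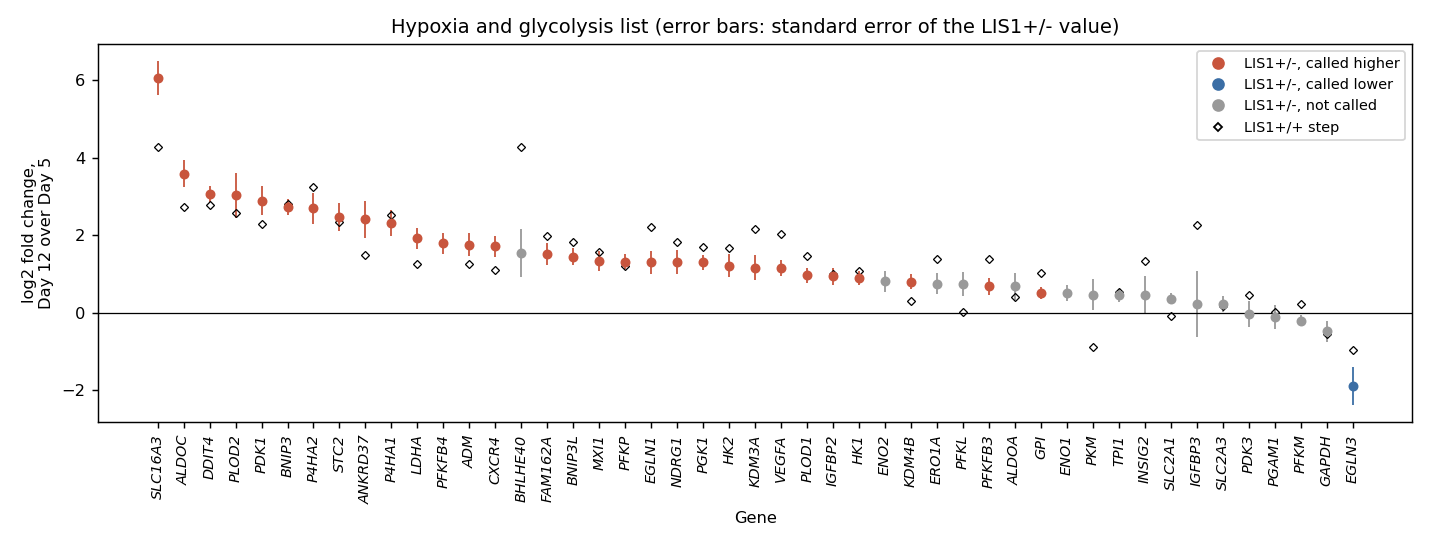
Log2 fold change of Day 12 over Day 5 for each of the 47 tested hypoxia and glycolysis genes in LIS1+/- organoids, ordered by size, with the SE as error bar. Red points were called higher (30), the blue point lower (EGLN3), grey points were not called (16), and open diamonds show the same step in LIS1+/+ organoids.

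Some genes of mitochondrial respiration and of the ribosome fell. Of 56 tested oxidative phosphorylation genes 14 fell and 1 rose (ATP5E), with a median log2 fold change of -0.26, and without Day 12 replicate 2 the number that fell was 6. The ATP5E call was lost without Day 5 replicate 1 or 3 or Day 12 replicate 1. COX7B, a cytochrome oxidase subunit, was at 94.6, 66.2 and 76.1 CPM at Day 5 and 48.2, 27 and 19.9 CPM at Day 12 (log2 fold change -1.37 ± 0.29, adjusted p = 0.00171). Of 69 tested cytosolic ribosomal protein genes 16 fell and 53 were not called, with a median of -0.32. The number that fell was 9 without Day 12 replicate 3 and 10 without Day 5 replicate 3. RPS27A, a small-subunit protein fused to ubiquitin, was at 617, 847 and 493 CPM at Day 5 and 262, 238 and 243 CPM at Day 12 (log2 fold change -1.40 ± 0.24, adjusted p = 0.00021). RPL7, a large-subunit protein, was at 235, 389 and 190.5 CPM at Day 5 and 111, 88.5 and 114 CPM at Day 12 (log2 fold change -1.38 ± 0.23, adjusted p = 0.000149). Many ribosomal protein genes have near-identical processed copies in the genome, RPL10 was listed at 0 counts in every library, and the share of reads with no unique alignment was also lower at Day 12, so these values are uncertain. The part of that share in the result was not tested. FTL, the ferritin light chain and the most abundant gene called lower, was at 9400.1, 6829.6 and 6480.1 CPM at Day 5 and 2562, 2192 and 2328 CPM at Day 12 (log2 fold change -1.68 ± 0.19, adjusted p = 7.67e-07). It has processed copies too.

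Cilium genes rose, with 11 of 24 tested members of a list of 34 higher, 13 not called and a median log2 fold change of 1.35. FOXJ1, the master regulator of motile cilia, was at 10.8, 11 and 10.8 CPM at Day 5 and 119, 56.9 and 88.6 CPM at Day 12 (log2 fold change 3.00 ± 0.31, adjusted p = 9.23e-08). TPPP3, a tubulin polymerisation protein of ciliated cells, was at 3.74, 1.46 and 5.27 CPM at Day 5 and 100.2, 56.9 and 43.3 CPM at Day 12 (log2 fold change 4.18 ± 0.46, adjusted p = 8.05e-07). RSPH1, a radial spoke protein, was at 3.74, 2.92 and 4.97 CPM at Day 5 and 18.5, 14.5 and 14.2 CPM at Day 12 (log2 fold change 1.98 ± 0.43, adjusted p = 0.0019). DRC1, of the dynein regulatory complex that motile cilia carry, gave 0 counts at Day 5 and 15.5, 13.9 and 6.27 CPM at Day 12, at least 32.7-fold higher. No Day 5 library reached the Day 12 range for these 4 genes. MCIDAS, an inducer of multiciliated cells, was at 0 in all 6 libraries.

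The partners of LIS1 were called at shares near those over all tested genes. Of 42 tested genes of LIS1, dynein, dynactin and their partners, 3 rose (DCX, DYNLRB2 and BICD1) and 3 fell (DYNLL2, CAPZA1 and NUDC), with a median log2 fold change of 0.07. DYNC1H1, the dynein heavy chain, was at 266, 242 and 199 CPM at Day 5 and 279.5, 276 and 254 CPM at Day 12 (log2 fold change 0.20 ± 0.17, adjusted p = 0.466). NDEL1, which tethers LIS1 to dynein, was at 39.2, 56.7 and 42.1 CPM at Day 5 and 23.5, 32.7 and 32.5 CPM at Day 12 (log2 fold change -0.62 ± 0.23, adjusted p = 0.0653). NDE1, its paralog, was at 2.99, 2.19 and 2.93 CPM at Day 5 and 3.71, 3.41 and 2.56 CPM at Day 12 (log2 fold change 0.22 ± 0.58, adjusted p = 0.847). None of these 3 was called, although the NDEL1 libraries of the days did not overlap. NUDC, a chaperone that stabilises LIS1, was at 229, 180.2 and 206 CPM at Day 5 and 138, 138 and 166 CPM at Day 12 (log2 fold change -0.47 ± 0.16, adjusted p = 0.047), a call lost without Day 5 replicate 1 or 3 or Day 12 replicate 1 or 2 (adjusted p up to 0.169). The number that rose was 1 without Day 5 replicate 1 or 2 or Day 12 replicate 1 or 2. The number that fell was 1 without Day 5 replicate 3 or Day 12 replicate 1 and 0 without Day 12 replicate 2.

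The remaining lists are given by their counts, beside 8.90% higher and 7.64% lower over all tested genes. Of 34 tested genes of the unfolded protein and amino acid stress response, 2 rose (TRIB3 and HSPB1) and 6 fell, among them the serine synthesis enzymes PHGDH and PSAT1. The number that fell was 3 without Day 5 replicate 1 and 2 without Day 12 replicate 3. The number that rose was 1 without Day 5 replicate 1 or 3 or Day 12 replicate 1 or 2. In cholesterol synthesis 5 of 24 rose, among them FDPS, FDFT1, SQLE and MSMO1, and 2 to 3 rose when any 1 library other than Day 5 replicate 2 was left out. Without Day 5 replicate 2 and the other two libraries of the series that stood apart in base composition, 9 rose. Of 13 tested retinoic acid pathway genes 1 rose (CRABP1) and 3 fell, among them ALDH1A3 and CRABP2, CRABP1 not being called without Day 12 replicate 1. Among 18 tested immediate early genes 4 rose (JUN, IER3, NR4A1 and KLF10) and MYC fell. Of 19 tested p53 targets 1 rose (DDB2) and 3 fell (BAX, FDXR and AEN), and 3 rose without Day 5 replicate 2. Among 25 cell cycle exit genes 4 rose (CDKN1C, CDKN2D, BTG3 and CCND2) and CDKN2A fell, 3 falling without Day 12 replicate 3. The actomyosin and adhesion list had 4 of 47 members higher and 4 lower, and the imprinted list 3 of 18 higher and 3 lower (1 lower without Day 12 replicate 3). Without the 3 libraries that stood apart in base composition, 7 actomyosin members were lower. The cadherin list had 5 of 30 higher and 1 lower (PCDH7). In the cadherin list 3 rose without any 1 of the Day 12 libraries and 3 fell without Day 5 replicate 2. The splicing and chromatin list had 2 of 26 members higher (CELF5 and ELAVL3), 1 without any 1 of the Day 12 libraries, and 1 member fell without Day 5 replicate 3. The muscle list had 1 of 7 higher (MYH7) and 1 lower (MYL4). The MYH7 call was lost without Day 5 replicate 1 or 3 or Day 12 replicate 3, and 2 members rose without Day 5 replicate 2.

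Of genes outside every list, PAMR1 (chr11:35431823-35530300, minus strand), which encodes a secreted peptidase-domain protein, had the largest fall among the genes named, at 111, 101 and 165 CPM at Day 5 and 0.618, 2.56 and 0.855 CPM at Day 12, 82.1-fold (log2 fold change -6.36 ± 0.45, adjusted p = 1.13e-09; -7.25 without Day 12 replicate 2). SPP1, the secreted phosphoprotein osteopontin, was at 20.2, 20.1 and 18.4 CPM at Day 5 and 0.618, 0.569 and 0.285 CPM at Day 12 (log2 fold change -5.26 ± 0.37, adjusted p = 2.15e-10). MYO3B, an unconventional myosin of sensory cells, was at 32.9, 21.6 and 28.1 CPM at Day 5 and 1.24, 0.854 and 1.14 CPM at Day 12 (log2 fold change -4.66 ± 0.50, adjusted p = 2.06e-07). The Day 12 levels of all 3 were under 3 CPM. LINC00461, a long non-coding RNA of the nervous system, gave 2 counts at Day 5 and 317 at Day 12, a ratio of levels of 162 (95% interval 44.5 to 1343). Day 5 replicate 3 held both of those Day 5 counts, so without it the Day 5 libraries were at 0. MEGF10, a phagocytic receptor of glia, rose from 0 counts to 5.56, 13.9 and 10.5 CPM, at least 32.4-fold. IGFBP2, a secreted binding protein of insulin-like growth factors, was among the most abundant genes that rose, at 1042, 559 and 796 CPM at Day 5 and 1700.3, 1651 and 1244 CPM at Day 12 (log2 fold change 0.94 ± 0.22, adjusted p = 0.00531).

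The same step was measured in the LIS1+/+ organoids, where 1556 genes (12.7%) were called higher and 1434 (11.7%) lower at Day 12. Of the 1087 genes higher in LIS1+/- organoids, 667 were also called higher in LIS1+/+, which is 61.4% of the LIS1+/- list and 42.9% of the LIS1+/+ list. Of the 933 lower, 508 were shared, 54.4% and 35.4% of the lists. Whether the step itself differed between the genotypes was tested as the difference of both steps, and 129 genes were called (1.06% of those tested), 47 with a more positive step in LIS1+/- (0.385%) and 82 with a more negative one (0.671%). Leaving out 1 of the 12 organoid libraries gave between 60 and 168 calls. The count was 60 without Day 12 LIS1+/- replicate 3, 74 without Day 5 LIS1+/+ replicate 1 and 80 without Day 5 LIS1+/+ replicate 2. Among the 129, 21 were called lower in LIS1+/- and not called in LIS1+/+, and 17 were called in both genotypes with opposite signs. The clone of each genotype and the genotype itself cannot be told apart.

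**Figure D4:**
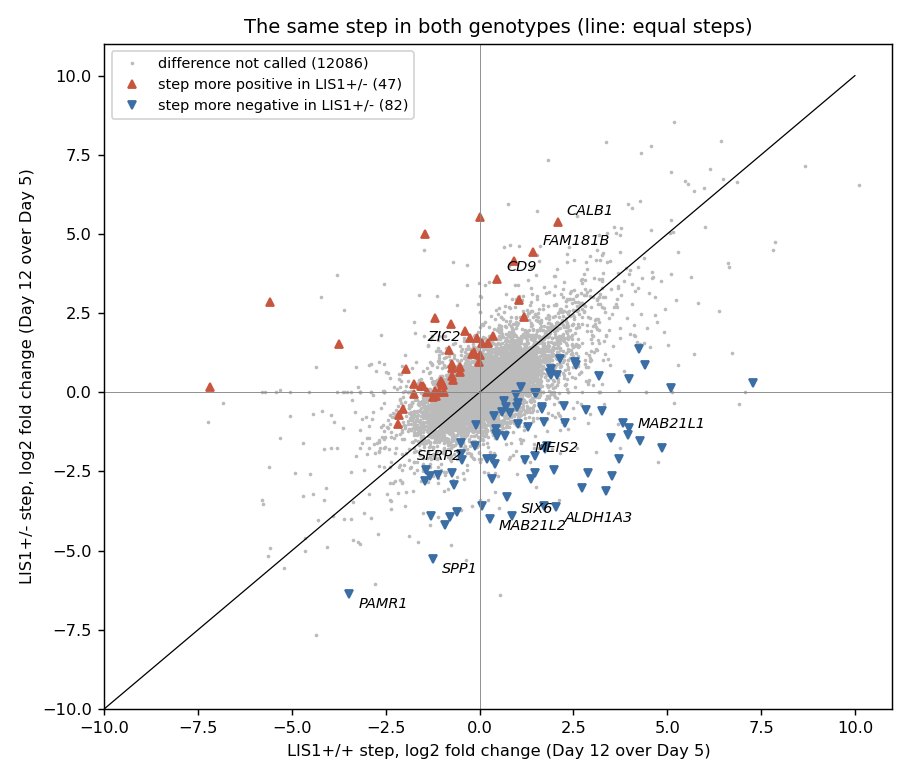
Log2 fold change of Day 12 over Day 5 in LIS1+/- organoids (vertical) against the same in LIS1+/+ organoids (horizontal), for 12215 genes. Triangles are the 129 genes whose step differed, 47 pointing up and 82 pointing down, and the line marks equal steps. CD9, FAM181B and CALB1 lie above the line, and ALDH1A3, MAB21L1 and SIX6 below it.

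Of the 22 tested forebrain and eye field members 7 had a called difference between the genotypes, against 1.06% of all genes. The step was more negative in LIS1+/- in 6 and more positive in 1, beside 0.671% and 0.385% of all genes, and among the 7 were SIX3, SIX6, LHX2, NR2F1 and OTX1. The SIX3 difference was not called with the replicate block (adjusted p = 0.0758). That of LHX2 was not called in a fit of only the libraries compared (adjusted p = 0.0595). ALDH1A3 fell in LIS1+/- as given above, and in LIS1+/+ it was at 1.93, 2.93 and 1.58 CPM at Day 5 and 4.52, 15.7 and 6.81 CPM at Day 12 (difference -5.66 ± 0.73, adjusted p = 0.000168). MAB21L1, the paralog of MAB21L2, whose step was not called in LIS1+/- (adjusted p = 0.0538), was at 15, 21.6 and 14.6 CPM at Day 5 and 6.18, 9.39 and 4.27 CPM at Day 12. In LIS1+/+ it was at 3.62, 0.901 and 2.93 CPM at Day 5 and 36.2, 67.3 and 15.1 CPM at Day 12 (difference -5.31 ± 0.69, adjusted p = 0.000172). VAX2 in LIS1+/+ was at 5.31, 6.08 and 7.67 CPM at Day 5 and 8.40, 45.3 and 21.4 CPM at Day 12 (difference -4.43 ± 0.63, adjusted p = 0.00043). At Day 5 every LIS1+/- library held more of these 3 genes than any LIS1+/+ library, so the steps started from different levels. The same held for SIX6, SIX3, LHX2, NR2F1, MEIS2, MAB21L2, FOXE3, HSD17B2, SFRP2, LAMB1, NID1 and SPP1. For FZD8 and RAX the Day 5 libraries of the genotypes overlapped. SIX6 in LIS1+/+ was at 16.6, 22.3 and 16 CPM at Day 5 and 6.46, 75.5 and 19 CPM at Day 12 (difference -4.78 ± 0.82, adjusted p = 0.00796). The Day 12 LIS1+/+ libraries disagreed, with replicate 2 highest for VAX2 and SIX6. That library also stood apart in base composition, with a GC slope of -0.0307 per percentage point against 0.0108 and 0.0200 in replicates 1 and 3, and the part of this in the differences was measured only by leaving it out. Without it the differences were -3.72 for VAX2, -3.45 for SIX6, -4.68 for MAB21L1 and -5.03 for ALDH1A3, and VAX2, SIX6, MAB21L1 and ALDH1A3 remained called.

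MEIS2 in LIS1+/+ was at 20.3, 15.3 and 18 CPM at Day 5 and 58.2, 39.6 and 27.7 CPM at Day 12 (difference -3.35 ± 0.44, adjusted p = 0.000172). In the same organoids MAB21L2 was at 26.5, 20.5 and 21.9 CPM at Day 5 and 53, 13.2 and 18 CPM at Day 12 (difference -4.27 ± 0.63, adjusted p = 0.000615). FOXE3 was there at 15.2, 9.46 and 15.8 CPM at Day 5 and 10.3, 20.1 and 11.7 CPM at Day 12 (difference -3.64 ± 0.60, adjusted p = 0.00134). Without Day 12 LIS1+/+ replicate 1 the MAB21L2 difference was -3.46. HSD17B2, a steroid dehydrogenase whose step was not called in LIS1+/- (adjusted p = 0.119), was at 16.1, 23 and 24 CPM at Day 5 and 6.18, 13.1 and 11.7 CPM at Day 12. In LIS1+/+ it was at 1.21, 1.13 and 2.93 CPM at Day 5 and 24.6, 43.4 and 9.73 CPM at Day 12 (difference -4.80 ± 0.67, adjusted p = 0.000223; -4.20 without Day 12 LIS1+/+ replicate 2). RAX, which fell in LIS1+/-, was at 50.2, 73 and 40.8 CPM at Day 5 and 5.17, 45.3 and 16.1 CPM at Day 12 in LIS1+/+, and its difference was not called (-2.89 ± 0.82, adjusted p = 0.136). Day 12 LIS1+/+ replicate 1 stood apart from its repeats in marker sums. Its endoderm list summed to 749 CPM against 28.9 and 105 CPM, and its part in the differences was measured only by leaving it out.

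**Figure D5:**
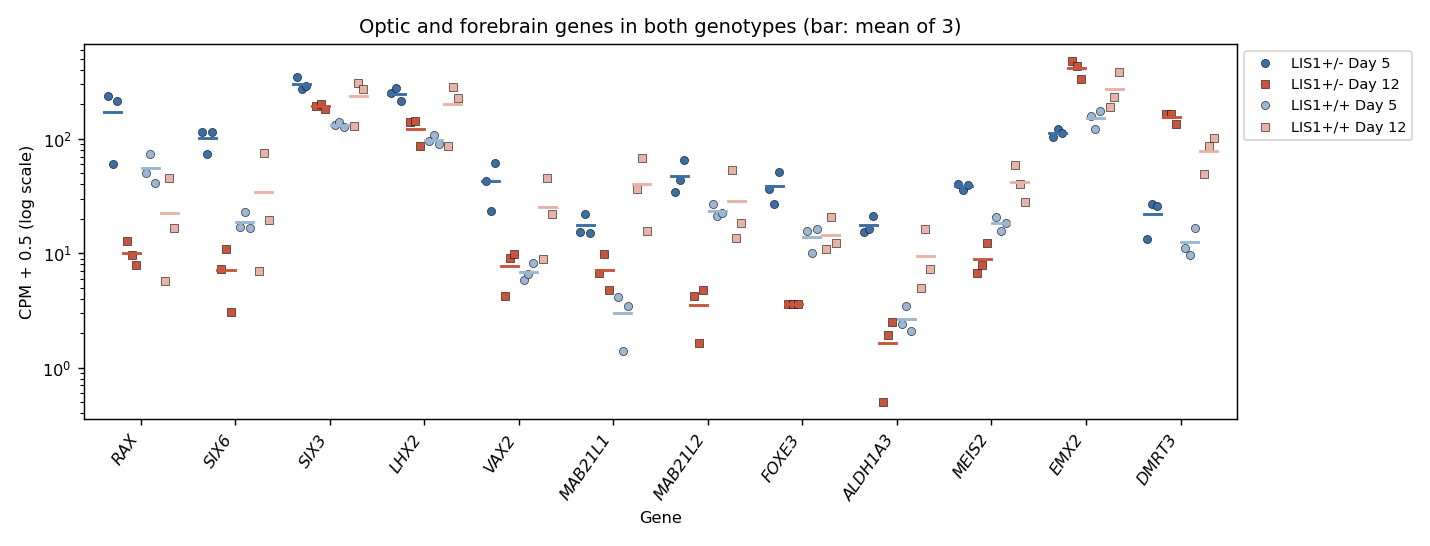
Level of 12 eye and forebrain genes in each organoid library of both genotypes, as CPM + 0.5 on a log axis, with bars at the means. Dark symbols are LIS1+/- and pale symbols LIS1+/+, circles Day 5 and squares Day 12. From RAX to MEIS2 the dark squares lie below the dark circles, and for EMX2 and DMRT3 they lie above them.

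On the other side, CD9, a tetraspanin that stem cells also carry (chr12:6199715-6238271, plus strand), had the smallest p of all differences. It was at 4.49, 7.31 and 3.22 CPM at Day 5 and 57.5, 62.9 and 58.7 CPM at Day 12 in LIS1+/-. The LIS1+/+ levels were 25.1, 33.4 and 33.1 CPM at Day 5 and 49.1, 43.4 and 35 CPM at Day 12 (difference 3.13 ± 0.30, adjusted p = 9.82e-07). The LIS1+/- libraries started below the LIS1+/+ libraries at Day 5 and ended above them at Day 12. FAM181B, a gene of the developing nervous system, was at 10.1, 13.9 and 6.14 CPM at Day 5 and 249.8, 162 and 230.0 CPM at Day 12 in LIS1+/-. Its LIS1+/+ levels were 41.2, 34.7 and 34.5 CPM at Day 5 and 75.6, 105 and 117 CPM at Day 12 (difference 2.99 ± 0.40, adjusted p = 0.000172). ZIC2 was at 394, 430.4 and 426 CPM at Day 5 and 399, 364 and 367 CPM at Day 12 in LIS1+/+, a step not called there, and rose in LIS1+/- (difference 1.41 ± 0.19, adjusted p = 0.000172). DMKN and ASS1, an epidermal secreted protein gene and an arginine synthesis enzyme, were not called in LIS1+/- (log2 fold changes 0.20 and 0.00) and fell in LIS1+/+ (-1.50 ± 0.19 and -1.40 ± 0.18). Their differences were 1.70 ± 0.26, adjusted p = 0.000623, and 1.40 ± 0.25, adjusted p = 0.00431. With the replicate block the ASS1 difference was not called (adjusted p = 0.0678). For FAM181B, ZIC2, DMKN and ASS1 too, every Day 5 LIS1+/- library lay below every Day 5 LIS1+/+ library. The same held for GAP43 and CALB1, whose differences are given below. For MYCN, also given below, every Day 5 LIS1+/- library lay above every Day 5 LIS1+/+ library.

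Signalling and matrix genes were among the other differences. SFRP2 in LIS1+/+ was at 2539, 2312 and 2379 CPM at Day 5 and 1580.4, 3023 and 1987 CPM at Day 12 (difference -1.56 ± 0.24, adjusted p = 0.000615). FZD8 there was at 26.1, 31.5 and 23.7 CPM at Day 5 and 33, 38.4 and 57.9 CPM at Day 12 (difference -2.06 ± 0.34, adjusted p = 0.00133). In LIS1+/+ neither gene fell, FZD8 being called higher there and SFRP2 not called. LAMB1 in LIS1+/+ was at 69.2, 78.9 and 70.8 CPM at Day 5 and 76.9, 23.9 and 37.5 CPM at Day 12 (difference -2.27 ± 0.41, adjusted p = 0.00431, and 0.0539 with the replicate block). NID1 there was at 52.8, 43.7 and 50.1 CPM at Day 5 and 93.7, 53.5 and 54.5 CPM at Day 12 (difference -1.84 ± 0.30, adjusted p = 0.00122). SPP1 in LIS1+/+ was at 6.75, 11.9 and 8.79 CPM at Day 5 and 5.82, 3.15 and 2.92 CPM at Day 12 (difference -4.02 ± 0.57, adjusted p = 0.000261). In each of these 5 genes the Day 5 to Day 12 change was more negative in LIS1+/-. Whole lists can be set side by side in both genotypes. In LIS1+/+ 35 of 47 hypoxia and glycolysis members, 14 of 24 cilium members and 16 of 22 neurogenesis regulators were called higher, with median log2 fold changes of 1.39, 0.98 and 1.61. In the neural crest list 12 of 21 members were higher in LIS1+/+ (median 1.75) and 2 in LIS1+/- (median -0.62), and PMEL was the 1 member whose difference was called. The crest list summed to 1129 CPM in Day 12 LIS1+/+ replicate 1 and to 345 and 638 CPM in its repeats. A difference that was not called does not show equal steps.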

How the data were processed

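Bulk MARS-seq libraries of WIBR3 stem cells and organoids were analysed. The authors deposited whole-number counts of reads per gene, 1 table per library, in the layout of htseq-count. Per the submitters' processing notes, cutadapt, STAR and DESeq2 were used and the builds GRCh37 and hg38 are listed. No source used here says whether molecular identifiers were collapsed.

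Samples were grouped by their titles. The 5 rows that name no gene (49.2% to 58.1% of reads in the LIS1+/- organoids) were dropped, leaving 26485 genes. edgeR 4.0.16 (R 4.3.3) fitted 1 quasi-likelihood model to all 18 libraries, with TMM scaling and the filterByExpr filter, which kept 12215 genes, and p-values were adjusted over all of them by the Benjamini-Hochberg method. Fits were tested on simulated data. CPM were computed on TMM-scaled library sizes. A level of 0 counts was replaced by 3 counts over the group for a bound, and 95% intervals of pooled ratios are exact and cover counting error only.

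Named genes were PAFAH1B1, the 15 largest called changes in each direction with at least 10 CPM and no overlap, the 10 most abundant called, the 5 smallest p for the difference in each direction, and for each of 39 lists the 5 smallest p in each direction and up to 3 members not called. TDGF1, SOX2, VAX2, FOXE3, SOX10, PECAM1, SOX17, MKI67, LDHA, VEGFA, P4HA1, RPL34, DYNC1H1, NDE1 and NDEL1 were chosen after their values were seen, as were members named to spell out a count. The members and lists were chosen with earlier results of these data known. Alternatives were DESeq2 1.42.0, its size factors, no filter, fewer libraries, a replicate block, leaving out each library, and, chosen after seeing the data, leaving out 3 libraries that stood apart in GC content and removing the GC trend. Some genes that the rule takes are not reported here. Gene positions are from GENCODE 29 on GRCh38.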

Additional observations from a re-analysis of the deposited data

Results flagged for a closer look

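The step from Day 5 to Day 12 differed between the genotypes in 129 genes by the test of the difference itself. Among the genes described, these are the LIS1+/- step minus the LIS1+/+ step on the log2 scale. Values are from edgeR over all 18 libraries, and their causes were not tested.

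Genes with a more negative step in LIS1+/- were ALDH1A3 (-5.66), MAB21L1 (-5.31), HSD17B2 (-4.80), SIX6 (-4.78), VAX2 (-4.43), MAB21L2 (-4.27) and SPP1 (-4.02). Smaller negative differences were those of FOXE3 (-3.64), MEIS2 (-3.35), PAMR1 (-2.89), LAMB1 (-2.27), FZD8 (-2.06), LHX2 (-2.05), NID1 (-1.84) and SFRP2 (-1.56). The remaining ones were SIX3 (-1.48), PMEL (-1.35), DLK1 (-1.32), NR2F1 (-1.25), RPL34 (-1.13) and MYCN (-1.12). A more positive step in LIS1+/- was measured for CALB1 (3.30), CD9 (3.13), FAM181B (2.99), DMKN (1.70), ZIC2 (1.41), ASS1 (1.40) and GAP43 (1.21).

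Of these 28 gene differences, 17 were called under every alternative tried, and none turned its sign. The replicate block ended 10 of the 28 calls. Among them were SIX3 (adjusted p = 0.0758), MYCN (0.0678), LAMB1 (0.0539), RPL34 (0.115) and ASS1 (0.0678). LHX2 was not called in a fit of only the libraries compared (0.0595) or without the 3 libraries apart in GC (0.0773). Single libraries ended 5 of the calls. DLK1 was not called without Day 5 LIS1+/+ replicate 1 or 3, Day 5 LIS1+/- replicate 2 or 3, Day 12 LIS1+/+ replicate 2 or 3, or any Day 12 LIS1+/- library (adjusted p up to 0.119). PMEL was not called without any 1 of the organoid libraries other than Day 5 LIS1+/- replicate 2 and Day 12 LIS1+/+ replicate 2 (up to 0.130). GAP43 was not called without Day 5 LIS1+/+ replicate 3, Day 5 LIS1+/- replicate 3 or Day 12 LIS1+/- replicate 3 (up to 0.0996), and CALB1 without Day 5 LIS1+/+ replicate 1, Day 5 LIS1+/- replicate 3 or Day 12 LIS1+/- replicate 3 (up to 0.0630). PAMR1 was not called without Day 12 LIS1+/+ replicate 1 or Day 12 LIS1+/- replicate 1 or 3 (up to 0.132). Without Day 12 LIS1+/- replicate 2 the differences of SIX6 and PAMR1 were -5.46 and -3.79, and without Day 12 LIS1+/+ replicate 2 that of CALB1 was 3.98.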

How the results depend on the processing

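The count of genes called over the step stayed between 1784 and 2388 under the alternatives that changed tools, filter, fit or GC content, and over single left-out LIS1+/- libraries it ran from 1325 to 1922 (1884 to 2276 over single left-out LIS1+/+ libraries), with 761 to 1014 higher and 564 to 908 lower over the LIS1+/- libraries. PAFAH1B1 ran from -0.05 to 0.24 over the LIS1+/- libraries, -0.05 being the value without Day 12 LIS1+/- replicate 2. Of 123 genes with a called step that were followed over the alternatives, 106 were called under every alternative and 17 were lost in at least 1, with no change of sign. Some members named only to spell out a count, such as SST and PCSK1N, were not among them. Of 13 genes followed that were not called, ENO1 and MAB21L1 were called under 4 alternatives each, TTR under 3 and HSD17B2 under 2, all 4 with the replicate block. ASS1, with a fitted change near 0, ran from -0.12 to 0.09 over single left-out LIS1+/- libraries, was 0 with no filter, and turned to -0.09 without Day 5 LIS1+/- replicate 2 and without the 3 libraries apart in GC, and to -0.12 without Day 12 LIS1+/- replicate 3.

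The number of genes whose step differed between the genotypes depended more on the setting. It was 363 with no filter (204 more positive, 159 more negative), 205 with DESeq2 (84 more positive), 68 in a fit of only the libraries compared (18 and 50), and 200 with the GC trend removed (102 more positive). Over single left-out libraries it ran from 60 to 168, with 21 to 76 more positive and 39 to 92 more negative. The cause was not tested.

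With the replicate block, 1784 genes were called over the step (1060 higher, 724 lower) and 42 differences (12 more positive, 30 more negative). Same-numbered libraries shared only a number: their deviations correlated at 0.004, 0.039 and 0.019. With 3 libraries a group and 1513390 to 3365342 counts each, low genes rest on few counts.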
